A study of Homo sapiens with 4 samples.

Results

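HES1, HEY1 and HEY2 encode transcriptional repressors, and the SMAD1 binding sites listed around these 3 genes in H1 human embryonic stem cells (hESCs) are described here before and after exposure to BMP4. A site was taken when it lay within 100 kb of the gene body on the human genome build hg19. By this rule 12 of 12885 listed peaks were found, which were 9 of 7682 peaks in BMP4-treated cells and 3 of 5203 in untreated cells. On hg19, HES1 spans 193853931 to 193856401 of chromosome 3 and HEY2 spans 126070726 to 126082415 of chromosome 6, both on the plus strand, and HEY1 spans 80676245 to 80680098 of chromosome 8 on the minus strand. Chromatin immunoprecipitation followed by sequencing (ChIP-seq) was used on SMAD1 to ask where it binds at the onset of BMP signaling. H1 is an established cell line, grown here on Matrigel in mTeSR1 medium, and the groups were untreated cells and cells given 50 ng/ml of BMP4 for 60 min. The 4 samples were 1 SMAD1 ChIP and 1 input per condition, and the authors merged replicates before they called peaks, so each condition has 1 peak list and no spread between cultures.

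BMP4 binds receptors at the cell surface that phosphorylate SMAD1 and its relatives, which then enter the nucleus with SMAD4 and bind DNA. HES and HEY proteins are basic helix-loop-helix factors that bind DNA as dimers, with themselves or with each other, and silence genes. They are best known as targets of Notch signaling, and BMP signals also induce some of them in several cell types. In embryos and stem cells HES1 restrains differentiation programs and represses its own gene, while HEY1 and HEY2 are known from heart and blood vessel development. A peak in the lists is a region with more ChIP reads than input reads, and its score was taken to be the peak caller's p-value written as −log10 and multiplied by 10. The lowest score in both lists was 50 (a p-value of 1e-05), so a site that is not listed may still be bound with a lower score. Read depth per library is not in the lists, so scores of the 2 conditions are set side by side without a test. The lists are also far longer than the peak sets given in the study's methods, and with the conditions in the opposite order, so counts of peaks here rest on many low-scoring sites.

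The bases just before the starts of HES1, which had a SMAD1 site near its start, and HEY2, which had none, are shown for orientation. The HES1 site ended 686 bp before the start on hg19, so these bases lie outside every listed peak. With 1 gene of each kind, no link between motifs and binding can be read from them. The sequence at HEY1, whose site was closer, is not shown. Each line holds 250 bases from RefSeq on build GRCh38.p14, 5′ to 3′ on the plus strand, ending at the last base before the gene. Capitals mark GTCT, the core of the SMAD binding element, on either strand (AGAC on the other), and GGCGCC, a GC-rich element bound by SMAD1 that reads the same on both strands. The motifs do not overlap here.
HES1, chr3:194135898-194136147: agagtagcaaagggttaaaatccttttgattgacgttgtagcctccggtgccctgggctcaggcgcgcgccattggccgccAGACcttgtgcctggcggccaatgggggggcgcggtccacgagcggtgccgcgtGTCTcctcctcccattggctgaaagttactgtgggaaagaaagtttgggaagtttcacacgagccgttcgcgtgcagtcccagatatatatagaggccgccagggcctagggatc
HEY2, chr6:125749382-125749631: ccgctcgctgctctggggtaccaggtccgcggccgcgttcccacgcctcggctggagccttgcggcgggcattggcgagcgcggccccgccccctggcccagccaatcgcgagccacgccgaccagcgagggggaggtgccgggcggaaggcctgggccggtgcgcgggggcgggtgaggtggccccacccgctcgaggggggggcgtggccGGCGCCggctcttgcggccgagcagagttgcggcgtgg
The HES1 window held GTCT 2 times and no GGCGCC, and the HEY2 window held 1 GGCGCC and no GTCT. Of 35116 RefSeq windows of the same length, 77.5% held GTCT and 16.4% held GGCGCC. GC content was 59.2% for HES1 and 79.2% for HEY2, against a median of 58% over all windows. A match is a run of letters and not a measured site, and the listed peaks themselves lie on hg19, for which no genome sequence was used here.

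Around these genes the BMP4 list held 9 peaks and the untreated list 3. HES1 had 4 peaks after BMP4 and none in untreated cells. HEY1 had 4 after BMP4 and 1 in untreated cells. HEY2 had 1 peak after BMP4 and 2 in untreated cells. Of these, 1 site was the same in both lists, and the other untreated peak scored 53.06, near the lower limit of 50. At scores of at least 100 HEY2 had 1 peak in each list, so no loss after BMP4 is read from its counts. No peak of either list overlapped the body of any of the 3 genes. The BMP4 peaks lay on both sides of HES1 (2 upstream and 2 downstream), only upstream of HEY1 (4 of 4) and only downstream of HEY2 (1 of 1), where upstream means before the start in the direction of transcription. All 3 untreated peaks were downstream of their gene.

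**Figure D1:**
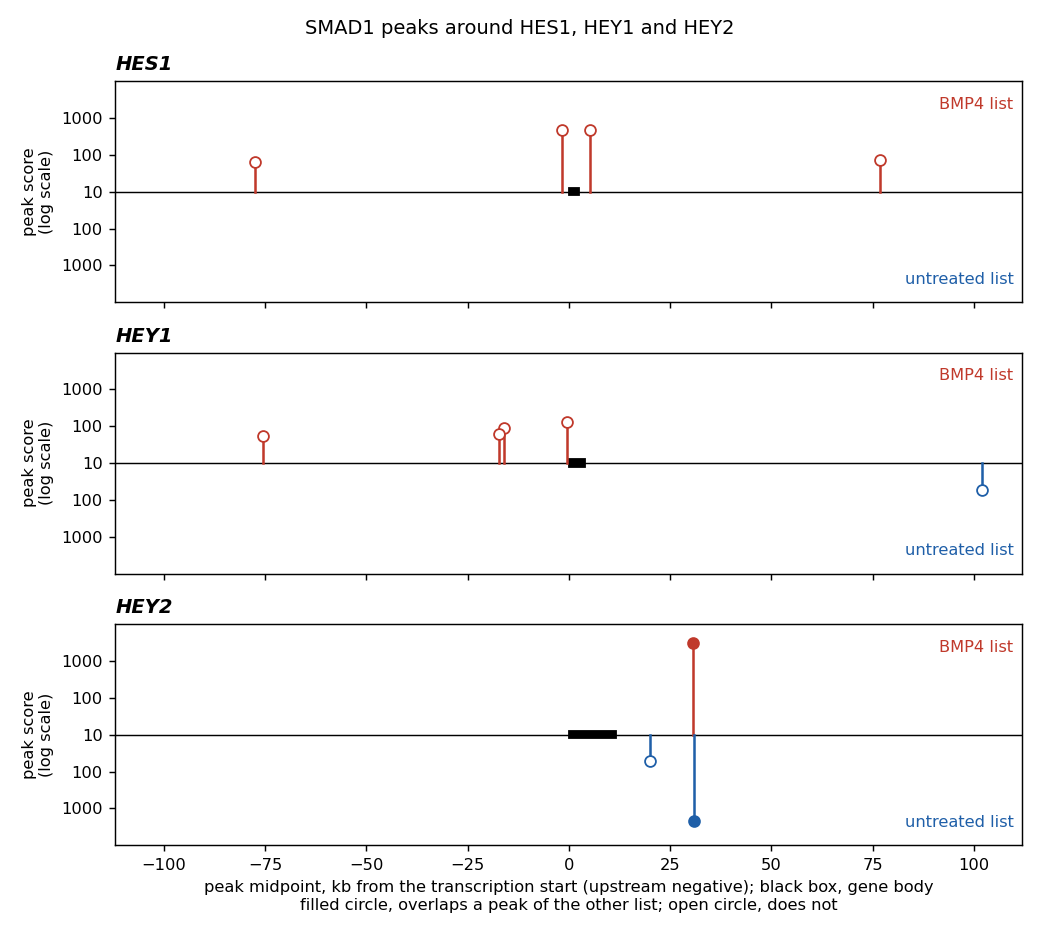
SMAD1 peaks within 100 kb of HES1, HEY1 and HEY2. The x axis gives the peak midpoint in kb from the transcription start, and the y axis the peak score on a log scale, upward for the BMP4 list and downward for the untreated list. HES1 has 4 BMP4 peaks and no untreated peak, HEY1 has 4 and 1, and at HEY2 the filled circles show the 1 site listed in both conditions.

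Only 1 site was found in both conditions. Peaks with 1 bp or more in common between the lists were counted as shared, and the rest as BMP4-only or untreated-only. At the 3 genes 1 of 9 BMP4 peaks and 1 of 3 untreated peaks were shared, and they were each other's partner, at HEY2. In the whole lists 12.7% of BMP4 peaks and 18.3% of untreated peaks were shared, and with so few members these counts cannot be told from those shares. The other 8 BMP4 peaks, at HES1 and HEY1, were BMP4-only.

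HES1 carried the highest-scoring BMP4-only peaks of the 3 loci, 1 on each side of the gene. The upstream peak covered 193851416 to 193853244 of chromosome 3, a width of 1829 bp, and ended 686 bp before the start of the gene. Its score was 465.62, which 5.22% of the BMP4 list reached or passed, and it ranked 401 in the list and 37 among 6708 BMP4-only peaks. The downstream peak, from 193858257 to 193859891, began 1855 bp past the end of the gene. It was 1635 bp wide and scored 455.4, which put it at rank 404 in the list and 38 among BMP4-only peaks. Both peaks thus had nearly the same score and together bracketed the gene, with 5012 bp between them. Widths like theirs were rare in the list, where 3.22% of peaks were as wide as the upstream one and 4.15% as wide as the downstream one.

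The remaining HES1 peaks were weak and lay farther out at similar distances. The first, from 193776046 to 193776647, was 77283 bp upstream with a score of 62.28. The second, from 193930497 to 193931226, was 74095 bp downstream with a score of 73.16. The BMP4 list as a whole had a median score of 63.3, so these were ordinary peaks. In untreated cells the nearest peak to HES1, from 194001794 to 194002448, was 145392 bp downstream and scored 65.31. The nearest untreated peak on the upstream side, from 193503105 to 193503623, was 350307 bp away and scored 58.67. The nearest untreated peak was 149 kb from the upstream strong BMP4 peak and 142 kb from the downstream one. Of windows as long as HES1 with 100 kb on each side, 76.4% held no untreated peak. Gaps of this size are therefore not particular to these peaks.

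How often a window of this size holds such peaks gives the scale. The genome was laid out in consecutive windows as long as HES1 with 100 kb on each side (202.5 kb). A BMP4 peak was found in 35.7% of them and an untreated peak in 23.6%. The absence of an untreated peak at HES1 is thus the common state. At least 4 BMP4 peaks, the number at HES1, were found in 1.03% of windows. At least 1 BMP4-only peak with a score of 100 or more was found in 5.61%. Gaps in the assembly are counted among these windows, which lowers the shares, and 3 genes chosen by name are too few for a rate.

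HEY1 had a BMP4-only peak directly before its start. The peak covered 80680190 to 80681126 of chromosome 8, and because HEY1 is read from the minus strand it lay 91 to 1028 bp upstream of the transcription start. Its score was 132.84, which 13.7% of the BMP4 list reached or passed. It ranked 1049 in the list and 501 among the BMP4-only peaks, well below the HES1 pair, and at 937 bp was narrower than either. Of all BMP4-only peaks, 13.6% had a score of at least 100. At the 3 genes 3 of 8 did, of which 2 were the HES1 pair and 1 was this peak, and 8 peaks are too few for a rate. RefSeq lists a long noncoding RNA gene, LINC01607, as the next gene upstream of HEY1, and which of the 2 genes the peak belongs to was not tested.

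Farther upstream, HEY1 had a close pair of weaker BMP4-only peaks. They covered 80695815 to 80696613 and 80697110 to 80697703, at 15716 and 17011 bp from the gene, with only 496 bp between them. Their scores were 88.26 and 60.81. The outermost peak, from 80755415 to 80755993, was 75316 bp upstream and scored 55.66, near the lower limit. No BMP4 peak was listed within 100 kb downstream of HEY1. The nearest on that side, from 80542061 to 80542716, was 133528 bp away and scored 51.32.

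In untreated cells the single HEY1 peak was on the opposite side of the gene. It covered 80577855 to 80578482, 97762 bp downstream, just inside the 100 kb limit, and its score of 52.2 was passed or reached by 87.1% of the untreated list. The nearest untreated peak upstream, from 80894446 to 80895160, was 214347 bp away and scored 58.34. The BMP4 peak at the HEY1 start was 102 kb from the nearest untreated peak. In windows as long as HEY1 with its flanks (203.9 kb), an untreated peak was found in 23.7% and a BMP4 peak in 35.6%. At least 4 BMP4 peaks were found in 1.13% and a BMP4-only peak with a score of at least 100 in 5.68%.

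**Figure D2:**
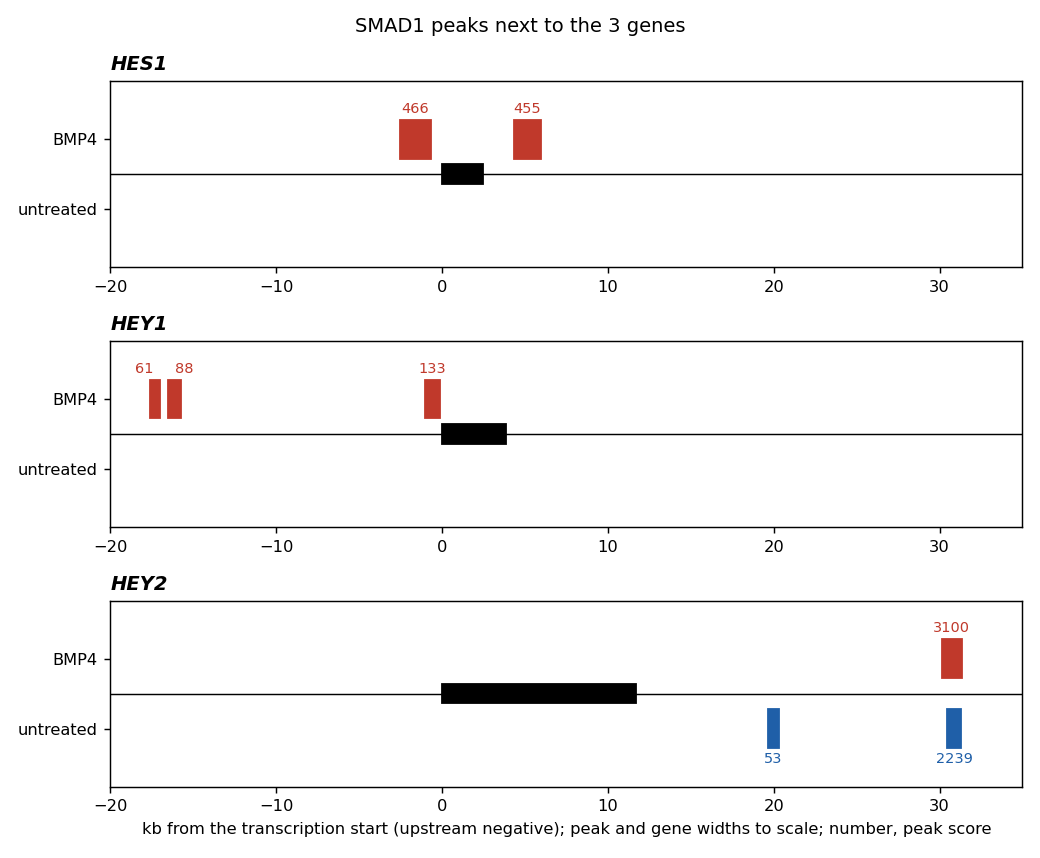
SMAD1 peaks next to the 3 genes, drawn to scale as boxes against the distance from the transcription start in kb, with the BMP4 list above and the untreated list below the line. The number at each box is its score, and the black box is the gene. BMP4 peaks stand on both sides of HES1 (scores 466 and 455) and at the HEY1 start (133), with no untreated peak in view at these genes. HEY2 has a peak in both lists at about 31 kb from its start (3100 and 2239). It also has an untreated-only peak at about 20 kb (53).

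HEY2 differed from the other two genes in that its high-scoring site was listed in both conditions. After BMP4 the peak covered 126100856 to 126102052 of chromosome 6, beginning 18440 bp past the end of the gene, with a width of 1197 bp and a score of 3100. In untreated cells it covered 126101200 to 126102006, beginning 18784 bp past the gene, with a width of 807 bp and a score of 2239.09. The untreated peak lay wholly inside the BMP4 peak and made up 67.4% of it. Scores of exactly 3100 were held by 225 BMP4 peaks, so this value carries no order among them. In the untreated list 30 peaks held it, so the higher score after BMP4 is not read as a trait of this site. The untreated peak ranked 73 in its list, where 1.4% of peaks scored as high. Among shared peaks of the whole lists the median score was 166 after BMP4 and 207 in untreated cells, below this site, though the BMP4 score is one it shares with many others.

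The next gene downstream of HEY2 in RefSeq is a transfer RNA (tRNA) gene, TRE-CTC1-7, followed by NCOA7, which encodes a nuclear receptor coactivator. The study's methods describe enrichment at tRNA regions as nonspecific. Whether this peak lies on the tRNA gene was not tested, since the gene order comes from another build. Without it HEY2 had no BMP4 peak within 100 kb and the nearest, from 125905518 to 125906101, was 164624 bp upstream with a score of 51.36.

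The other HEY2 peak was untreated-only. It covered 126090379 to 126091054, 7963 bp past the end of the gene, and its score of 53.06 was passed or reached by 82.4% of the untreated list. It was 9.8 kb from the nearest BMP4 peak. HEY2 was the only gene of the 3 with an untreated peak within 10 kb and the only one without a BMP4 peak there. Upstream of HEY2 neither list had a peak within 100 kb, and the nearest untreated one, from 125812935 to 125813652, was 257073 bp away with a score of 51.15. Windows as long as HEY2 with its flanks (211.7 kb) held an untreated peak in 24.5% and a BMP4 peak in 36.8%, and at least 2 untreated peaks in 5.87%.

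**Figure D3:**
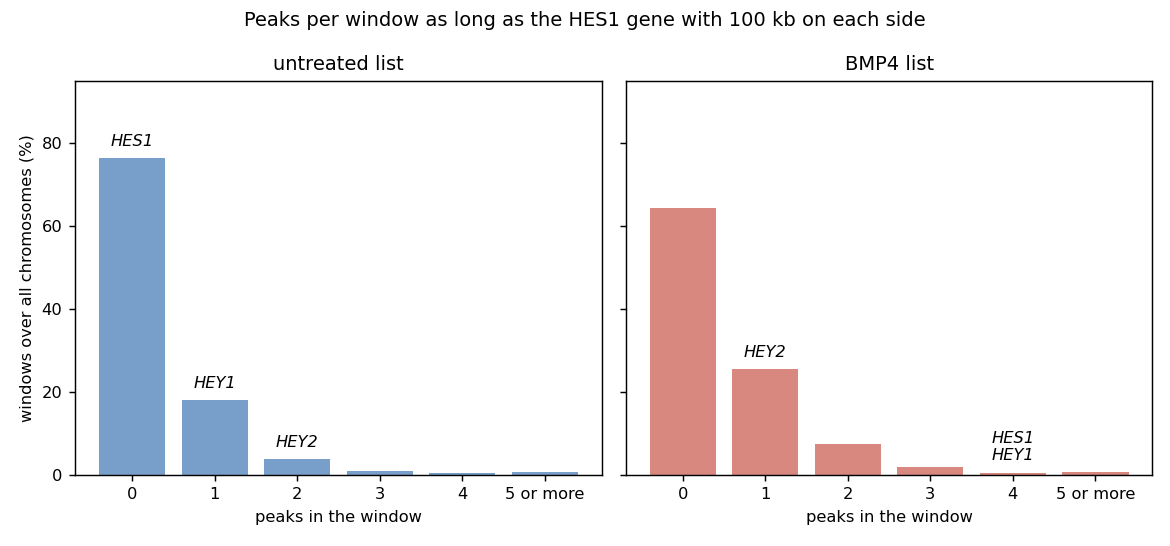
Share of windows by the number of peaks they hold (0 to 4, and 5 or more), over all chromosomes, for the untreated list (left) and the BMP4 list (right). Windows are as long as HES1 with 100 kb on each side, and the gene names stand above the number of peaks each gene has within its own, slightly different window, which is 0, 1 and 2 in the untreated list and 4, 4 and 1 in the BMP4 list for HES1, HEY1 and HEY2.

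Among the 8 BMP4-only peaks of HES1 and HEY1 the scores ran from 55.66 to 465.62 with a median of 80.7, against 61.2 for all BMP4-only peaks. Their widths ran from 579 to 1829 bp with a median of 764.5 bp, against 646 bp. The 5 of them beyond 10 kb had a median score of 62.3, and 8 peaks are too few to be told from the whole list. The 2 untreated-only peaks, at HEY1 and HEY2, scored 52.2 and 53.06, and the median over all untreated-only peaks was 58.9. The high scores at HES1 and at the HEY1 start stood at the peaks closest to the genes. Each of the 5 BMP4-only peaks beyond 10 kb, within the 100 kb window, scored below 100. Most BMP4-only peaks of the whole list did too, since 13.6% had a score of at least 100, so no fall with distance is read from these 5.

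**Figure D4:**
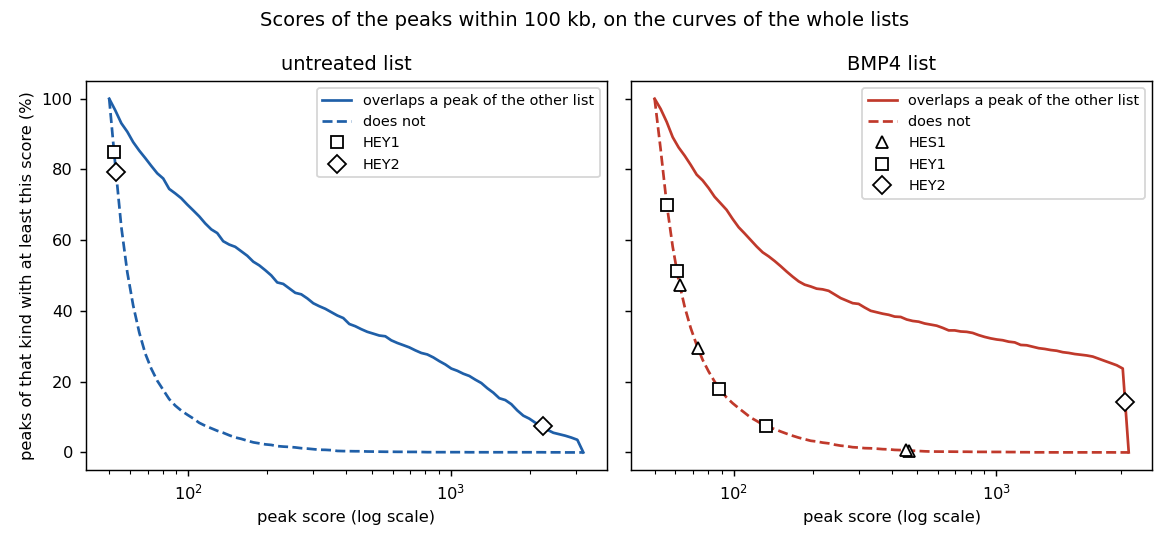
Share of peaks (y axis, %) that reach a given score (x axis, log scale), for shared peaks (solid line) and peaks of 1 condition (dashed line) of the untreated list (left) and the BMP4 list (right). Symbols place the peaks of HES1, HEY1 and HEY2 on the curve of their kind. The HES1 pair (466 and 455) stands where the BMP4-only curve is close to 0, at ranks 37 and 38 of 6708, and the HEY2 site stands at the right-hand end of the shared curves, at a score of 3100 that it has in common with other BMP4 peaks.

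From 100 kb to 1 Mb around the genes the lists held 16 further BMP4 peaks and 11 further untreated peaks. None of the 27 was shared, and most peaks of the whole lists were not shared either (12.7% of BMP4 and 18.3% of untreated peaks were). The median score of the further peaks was 61.3 after BMP4 and 55.8 in untreated cells. One of them scored above 100, a BMP4-only peak 322487 bp upstream of HES1, from 193529896 to 193531443, with a score of 244.27 and a width of 1548 bp. It ranked 144 among BMP4-only peaks, and the nearest untreated peak was 26.3 kb away. Within 1 Mb HES1 thus had 10 BMP4 and 3 untreated peaks, HEY1 had 8 and 7, and HEY2 had 7 and 4. The whole BMP4 list is longer as well (7682 peaks against 5203), and no share of windows of this length was computed. The larger BMP4 counts are therefore not read as a trait of these genes.

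**Figure D5:**
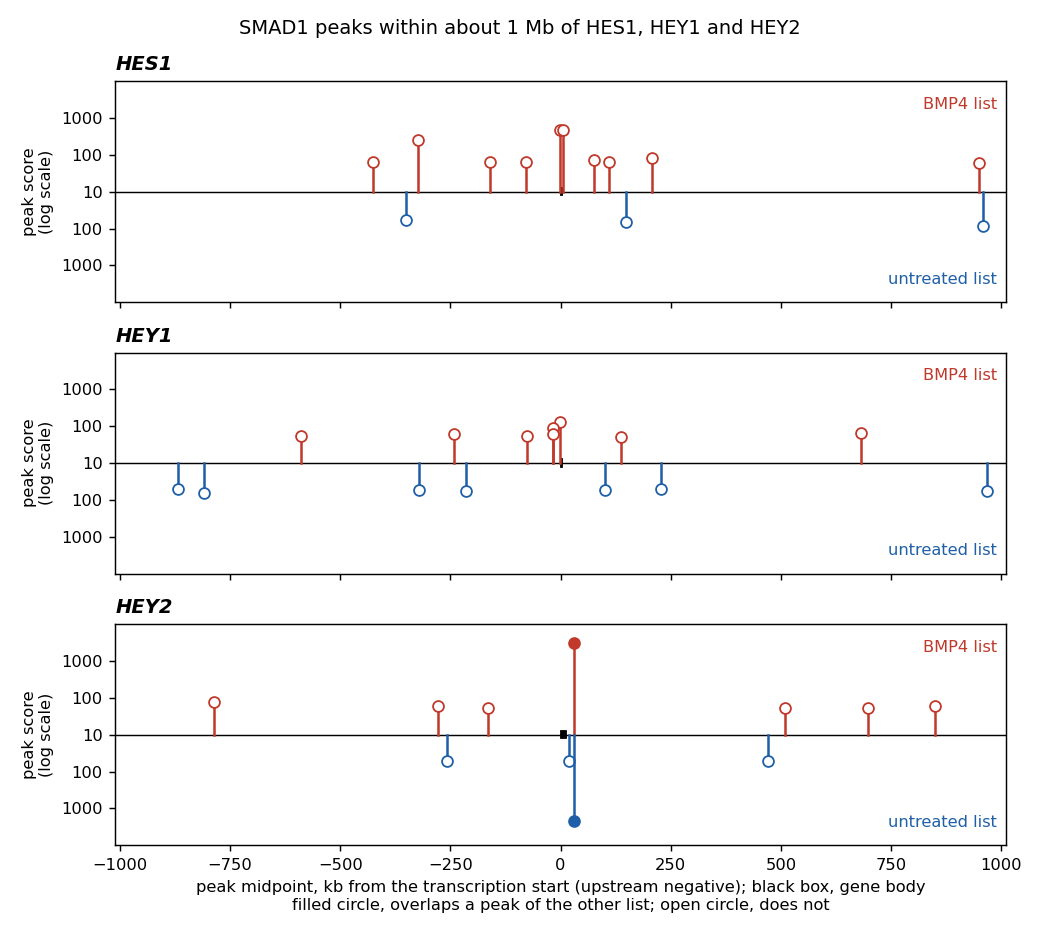
SMAD1 peaks up to 1 Mb from HES1, HEY1 and HEY2, with the peak midpoint in kb from the transcription start on the x axis and the score on a log scale on the y axis (BMP4 list upward, untreated list downward). HES1 has 10 BMP4 and 3 untreated peaks, HEY1 has 8 and 7, and HEY2 has 7 and 4. The filled circles at HEY2 are the only peaks in view that overlap a peak of the other list. In the whole lists 12.7% of BMP4 peaks and 18.3% of untreated peaks do so.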

How the data were processed

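SMAD1 ChIP-seq was analysed from 1 deposited peak list per condition. Per the study's methods and the submitters' processing notes, the authors aligned reads to hg19 with BWA 0.7.5a, merged replicate ChIP and input samples and called peaks with MACS 1.4.2 at default settings. The deposited lists give positions and a score for each peak, with no read counts. They hold many times more peaks than the methods state for either condition, and the order of the conditions is reversed, so they may come from another run or a looser limit, and weak peaks here may not be in the set the study used. Neither input was analysed on its own.

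Gene bodies were given on hg19. Gaps are the bases between gene body and peak edge, and BED starts were raised by 1. Partners, ranks and windows were computed over the whole lists with Python 3.11.15, numpy 2.4.6 and pandas 2.3.3. Figures used matplotlib 3.10.9. The overlap and gap steps were tested on simulated data. Windows ran from the first to the last listed peak of each chromosome. RefSeq GRCh38.p14 gave gene order and bases before gene starts. GENCODE 44 gave strands.

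All peaks within 100 kb and the nearest peak on each side were eligible to be named. A BMP4-only peak 322487 bp upstream of HES1 falls outside this rule and was named because of its score. The members and lists were chosen with earlier results of these data known. With 1 list per condition no test was made, and intervals (95%, exact binomial) served only to judge alternatives.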

Additional observations from a re-analysis of the deposited data

How the results depend on the processing

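In all, 22 values were recomputed under the alternatives, and 71 of 113 recomputed values stayed within 1.5 times the reported count or distance, or within the 95% binomial interval of a share. No paired analysis was possible because the conditions are represented by a single list each. Limiting both lists to scores of at least 100 left 1 untreated and 4 BMP4 peaks at the 3 genes (2 at HES1, 1 at HEY1, 1 at HEY2), and moved the nearest untreated peak to 1641.238 kb from HES1, 1753.679 kb from HEY1 and 18.784 kb from HEY2. Measured from the transcription start, the nearest HEY2 peak was at 19.652 kb (untreated) and 30.129 kb (BMP4), and HEY1 had no untreated peak within 100 kb. Without the shared HEY2 peak, an alternative chosen after seeing the data, the nearest BMP4 peak to HEY2 was at 164.624 kb. A window of 200 kb gave HES1 1 untreated peak and raised the BMP4 count of HEY2 from 1 to 2. A window of 50 kb left HEY1 no untreated peak and lowered the BMP4 count of HES1 from 4 to 2. The distances of 0.686 kb (HES1) and 0.091 kb (HEY1) to the nearest BMP4 peak were the same in every alternative run for them. None of these runs could have changed them. Both peaks lie upstream, score above 100, are narrower than 5000 bp and rank high enough to stay in a BMP4 list cut to the untreated length.

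Shares of windows followed window size and score. For the windows of HES1, HEY1 and HEY2 in that order, untreated shares were 4.55%, 4.58% and 4.75% at scores of at least 100, 13.3%, 13.4% and 14.4% with 50 kb on each side, and 39.7%, 39.5% and 39.8% with 200 kb. BMP4 shares were 7.76%, 7.8% and 8.09%, then 20.6%, 20.9% and 22.3%, then 56.5%, 57% and 57.3%. On the gene's own chromosome the BMP4 shares were 40.8%, 37.5% and 39.7%, and the untreated shares 21.3% for HEY1 and 23.3% for HEY2. Without counts, a change below a score of 50 was not detectable.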

Other observations

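The arrangement at HES1, with 2 high-scoring BMP4-only peaks close together, was looked for elsewhere after its values had been seen. Of 92 BMP4-only peaks that scored 300 or more, 10 had another such peak within 10 kb, or 10.9%, and the HES1 peaks were 2 of these 10. In the untreated list 2 of 39 untreated-only peaks with such a score had one, or 5.13%. The counts are descriptions of 1 list each, with no test.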
